A study of Mus musculus with 18 samples.

Results

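Meiotic recombination hotspots that lie close together on the same autosome were examined as a group. A hotspot interval of the DMC1 table was taken as closely spaced when the nearest other interval on its chromosome was at most 20000 bp away, measured from the end of one to the start of the next. This rule used positions only, and it found 1348 of the 8744 autosomal intervals, out of 9132 in the whole table. The other 7396 autosomal intervals served for comparison. ChIP-seq had been done on spermatocytes of mice at 14 days of age. The columns used were DMC1 in C57BL/6J (B6), in mice with a conditional Ewsr1 knockout driven by Stra8-iCre (Ewsr1 CKO) and in Prdm9+/- mice (Prdm9 het), together with H3K4me3 and H3K36me3 in Ewsr1 CKO. Each of these 5 groups comprised 2 samples but a single column of values in RPM, a read count scaled to the size of its library.

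With 1 column per group no value below has a replicate spread, and no test over samples was possible. All differences are therefore descriptions of the authors' values, and Wilson 95% intervals of shares cover counting error only and treat intervals or pairs as independent. In Ewsr1 CKO the deletion reaches only cells in which the Stra8 promoter has driven Cre. The labels give only the genotype, not the strain background, of the Ewsr1 CKO and Prdm9 het mice. Whether the B6 controls carried Cre is not given in the sources used here, and region tables offer no marker genes by which the cell type could be checked. In B6 each autosomal value (100%) was a multiple of 0.129 RPM, and in Ewsr1 CKO of 0.246 RPM, to within 0.01 of a step. If 1 step is 1 read, closely spaced intervals held between 44 and 8517 reads in B6 and between 12 and 3509 (median 230) in Ewsr1 CKO. The depth of the Prdm9 het and histone columns is unknown.

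A hotspot is a short stretch of the genome where programmed DNA double strand breaks form often in meiosis. In mice its place is chosen by PRDM9, a protein whose zinc fingers bind DNA and whose PR/SET domain adds H3K4me3 and H3K36me3 to the nucleosomes around the bound site. The breaks are resected to single strands, which DMC1 coats while it searches for the homologous chromosome, so that DMC1 ChIP-seq reports break-associated DNA site by site. A break can lower the chance of another one close by on the same or the sister chromatid, a process called interference that depends on the kinase ATM. EWSR1 is an RNA-binding protein of the FET family. Close neighbours are of interest because they lie in the same stretch of chromatin and often in the same gene. Separate hotspots would each have their own PRDM9 binding site, but such sites were not read here.

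Sequence was at hand only for promoter windows, which run from 250 bases before to 50 after a RefSeq start in GRCm38.p6, the assembly of mm10. Promoters were rarely involved: 22 of the 1348 closely spaced intervals (1.63%, Wilson interval 1.08 to 2.46%) and 142 of the 7396 others (1.92%) overlapped one. Of the windows that lay wholly inside a closely spaced interval, 6 belonged to protein-coding genes on the chromosomes read for sequence. The windows of Lims1, Vrk1, Txndc2 and Pcare are printed because they lie at a gene start inside a DMC1 interval, 5′ to 3′ on the gene's strand with CG dinucleotides in capitals. DMC1 values are given per interval, so the level over the window itself is not known. The Lims1 window (chr10:58371204-58371503, plus strand) belongs to an adaptor protein of cell adhesions. The Vrk1 window (chr12:106025557-106025856, plus strand) belongs to a nuclear serine/threonine kinase. The Txndc2 window (chr17:65642155-65642454, minus strand) belongs to a thioredoxin of developing sperm. The Pcare window (chr17:71752856-71753155, minus strand) belongs to an actin regulator of the photoreceptor cilium.
Lims1: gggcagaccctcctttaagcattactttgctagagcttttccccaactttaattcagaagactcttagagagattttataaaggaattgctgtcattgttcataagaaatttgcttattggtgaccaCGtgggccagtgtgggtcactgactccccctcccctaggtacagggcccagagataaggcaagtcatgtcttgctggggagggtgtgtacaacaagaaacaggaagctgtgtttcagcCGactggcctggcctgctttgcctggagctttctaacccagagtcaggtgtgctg
Vrk1: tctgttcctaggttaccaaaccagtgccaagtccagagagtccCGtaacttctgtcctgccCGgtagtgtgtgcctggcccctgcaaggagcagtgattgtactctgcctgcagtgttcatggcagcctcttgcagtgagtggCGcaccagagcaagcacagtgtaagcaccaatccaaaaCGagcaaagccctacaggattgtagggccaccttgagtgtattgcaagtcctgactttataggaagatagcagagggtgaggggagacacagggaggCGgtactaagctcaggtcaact
Txndc2: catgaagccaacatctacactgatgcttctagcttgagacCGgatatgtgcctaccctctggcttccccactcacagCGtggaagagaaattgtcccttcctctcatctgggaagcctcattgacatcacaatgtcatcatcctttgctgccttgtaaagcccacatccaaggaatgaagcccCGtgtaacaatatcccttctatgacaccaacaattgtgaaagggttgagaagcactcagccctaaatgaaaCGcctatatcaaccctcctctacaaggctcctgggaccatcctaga
Pcare: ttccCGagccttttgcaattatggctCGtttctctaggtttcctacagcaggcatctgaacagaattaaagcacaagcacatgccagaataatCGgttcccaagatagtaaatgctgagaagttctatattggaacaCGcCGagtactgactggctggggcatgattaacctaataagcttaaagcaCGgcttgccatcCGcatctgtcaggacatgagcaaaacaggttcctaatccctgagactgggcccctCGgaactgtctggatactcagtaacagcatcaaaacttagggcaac

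These windows held 2 (Lims1), 5 (Vrk1), 4 (Txndc2) and 8 (Pcare) CG dinucleotides, searched as CG, which reads the same on both strands. Over all 32851 windows of the table the median was 7, and 94.6% held at least 1. At the Lims1 interval the DMC1 values of B6, Ewsr1 CKO and Prdm9 het were 141, 113 and 23.1 RPM, with 3.60 RPM of H3K4me3 in Ewsr1 CKO. The Vrk1 interval had 41.0, 36.3 and 3.21 RPM of DMC1, and unlike the other 3 it overlapped no interval of the H3K4me3 table. The Txndc2 interval had 29.3, 38.1 and 8.39 RPM, and the Pcare interval 60.2, 70.0 and 8.72 RPM. In B6 the Lims1 interval was above the upper quartile of closely spaced intervals (103 RPM), and the other 3 lay between the quartiles.

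Closely spaced intervals formed 640 clusters, defined as chains in which each gap was at most 20 kb. Of these, 575 held 2 intervals, 62 held 3 and 3 held 4. The median cluster spanned 16055 bp and the longest 56059 bp. Within clusters there were 708 pairs of consecutive intervals, with a median gap of 10270.5 bp against 167589 bp over all 8725 consecutive autosomal pairs. No intervals overlapped. The narrowest gap was 70 bp, and 9 pairs were under 1 kb apart. The 18 intervals of these 9 pairs were narrow, with a median width of 1572 bp against 2520.5 bp over all closely spaced intervals, and had a median B6 value of 32.0 RPM. The 3 narrowest gaps, 70 bp on chromosome 18, 97 bp on chromosome 4 and 109 bp on chromosome 1, separated intervals of between 6.82 and 11.6 RPM in B6. Whether such pairs are separate hotspots or one that was listed in 2 pieces was not tested.

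The rule's limit fell in a continuous run of gaps. Just inside it, a pair in Celf2, an RNA-binding splicing regulator, was 19986 bp apart and had 233 and 96.7 RPM in B6. On chromosome 7 a pair 19941 bp apart had 34.7 and 136 RPM, and one in Fam168a, 19901 bp apart, had 23.0 RPM in both intervals. Just outside it, the gaps were 20088 bp on chromosome 11 (15.8 and 22.1 RPM), 20100 bp on chromosome 7 (44.1 and 21.0 RPM) and 20110 bp in Ubash3b on chromosome 9 (128 and 87.2 RPM).

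The share of intervals that were closely spaced varied among the 19 autosomes from 7.92% on chromosome 3 (40 of 505) to 19.8% on chromosome 10 (87 of 440). Closely spaced intervals did not sit in visibly denser regions: both they and the others had a median of 8 further intervals within 1 Mb, their own cluster left out. Their distance from the last listed interval of the chromosome was also alike, with 6.75% (91 intervals) against 7.44% (550) lying within 10 Mb of it. The clearest difference in setting was the gene content. Of the closely spaced intervals, 66.8% (900, Wilson interval 64.2 to 69.2%) overlapped the span of a RefSeq protein-coding gene, against 51.8% of the others (3829, 50.6 to 52.9%). Exons and introns were not distinguished. In 405 of the 708 pairs (57.2%) both intervals lay in the same gene.

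Closely spaced intervals fell in 499 protein-coding genes, 4 of which held at least 5. Exoc4, a subunit of the exocyst that tethers secretory vesicles, held 8 in 3 clusters, in a gene of 725 kb. Tenm2, a teneurin adhesion protein, held 6 in a gene of 1230 kb. Grin3a, a subunit of the NMDA receptor, and Kcnma1, the large-conductance calcium-activated potassium channel, held 5 each, in genes of 184 and 713 kb. Values within a gene were far apart: in Exoc4 they ran from 17.4 to 297 RPM in B6, and in Tenm2 from 17.1 to 351 RPM. Strong and weak hotspots thus lay in the same gene.

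In DMC1 level the closely spaced intervals were close to the rest. The median in B6 was 50.4 RPM (quartiles 26.6 and 103) against 46.7 RPM (24.2 and 97.1). In Ewsr1 CKO it was 56.5 RPM against 56.0 RPM, and in Prdm9 het 9.30 RPM against 8.97 RPM. In B6, 53.1% of them (716 of 1348, Wilson interval 50.4 to 55.8%) exceeded the median of the other intervals. The same count was 50.2% (677) in Ewsr1 CKO. It was 47.8% among the 448 intervals outside gene spans, and closely spaced intervals in gene spans had a median of 55.9 RPM in B6 against 41.7 RPM outside them. Together they made up 15.4% of the autosomal intervals and took 16.4% of the summed autosomal DMC1 signal in B6, 15.3% in Ewsr1 CKO and 15.8% in Prdm9 het.

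**Figure D1:**
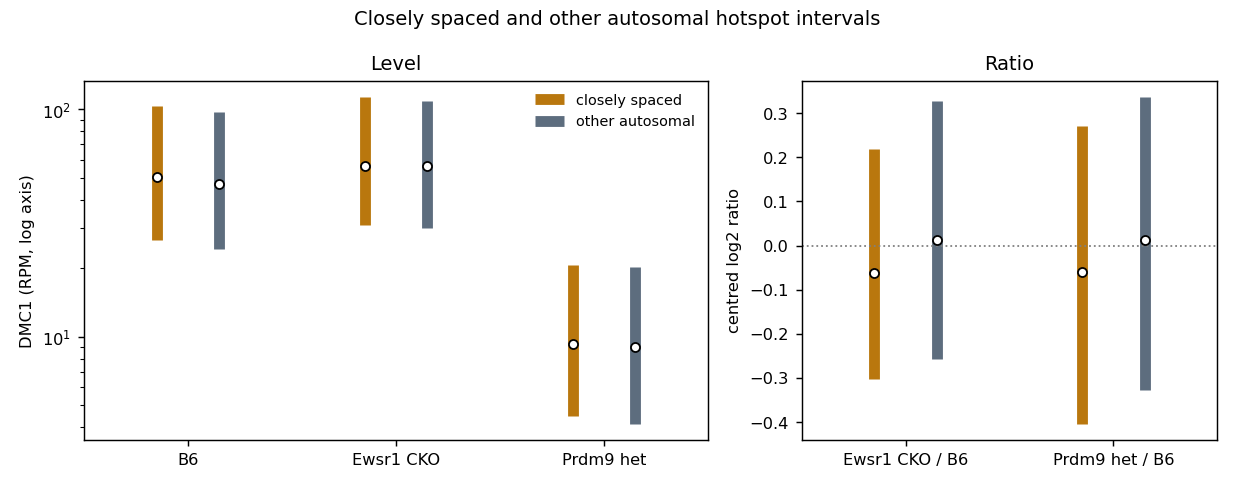
DMC1 level (left, RPM on a log axis, 3 genotypes) and centred log2 ratio to B6 (right) of 1348 closely spaced (ochre) and 7396 other (grey) autosomal intervals, where bars run from the lower to the upper quartile and circles are medians. The bars overlap almost wholly, and the ochre medians of both ratios (−0.06) lie below the grey ones (0.01).

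To compare genotypes, the columns were scaled to the B6 sum over autosomal intervals, 1 RPM was added, and the log2 ratio to B6 was centred on its median over all autosomal intervals. A value of 0 is thus the typical autosomal hotspot, and total break number cannot be read from it. For Ewsr1 CKO over B6 the median of this ratio was −0.06 in closely spaced intervals (quartiles −0.30 and 0.22) and 0.01 in the others (−0.26 and 0.33). Of the closely spaced intervals 43.2% (582, Wilson interval 40.6 to 45.8%) exceeded the median of the others. The median of closely spaced intervals was below that of the others on 15 of 19 autosomes, with differences from −0.18 to 0.04. A ratio at or above 0.5 was found in 139 of them (10.3%), beside 14.8% of all autosomal intervals, and a ratio at or below −0.5 in 154 (11.4%), beside 9.47%. Ratios at or above 0.5 were thus less frequent, and ratios at or below −0.5 slightly more frequent, than over all autosomal intervals.

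The Prdm9 het column showed a similar offset. The median centred log2 ratio to B6 was −0.06 (quartiles −0.40 and 0.27) against 0.01 in the others (−0.33 and 0.34), and 44.1% (595) exceeded the median of the others. The median was lower on 15 of 19 autosomes, with differences from −0.29 to 0.12. A ratio at or below −0.5 was found in 267 closely spaced intervals (19.8%), beside 16.7% of all autosomal intervals, and one at or above 0.5 in 168 (12.5%), beside 15.2%. Both comparisons use the same B6 column.

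Gene spans and the H3K4me3 list moved with these ratios. For Ewsr1 CKO over B6 the median in gene spans was −0.10 in the 900 closely spaced intervals and −0.06 in the others, and outside gene spans 0.03 and 0.11. For Prdm9 het over B6 it was −0.14 and −0.07 in gene spans, but 0.12 and 0.08 outside, so that the order was turned there. Outside gene spans 52.9% of the closely spaced intervals exceeded the median of the others in Prdm9 het over B6. Intervals with a listed H3K4me3 site had Ewsr1 CKO medians of −0.12 when closely spaced and −0.05 otherwise, and those without one 0.03 and 0.10. The part of gene content in the offsets was not tested beyond these strata.

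**Figure D2:**
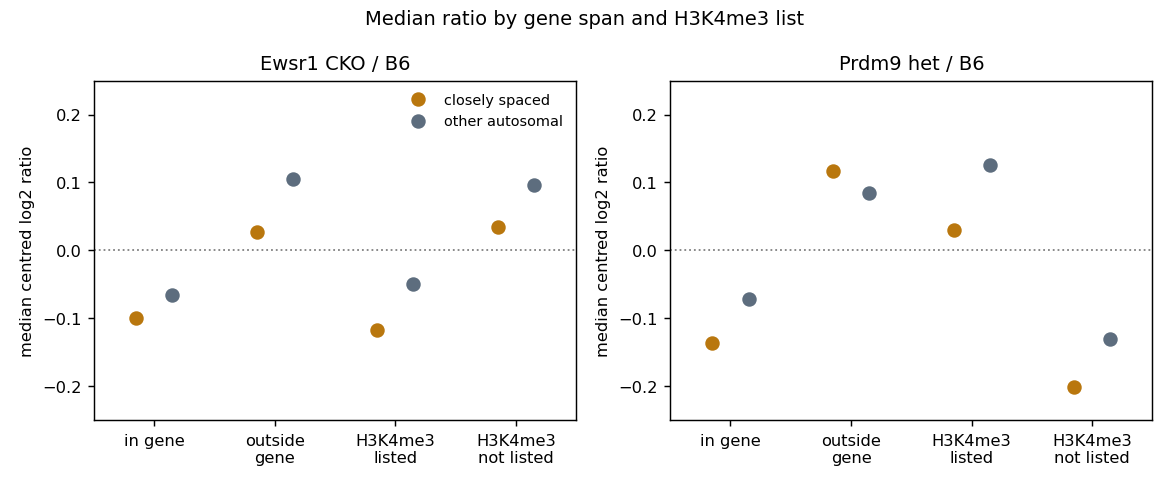
Median centred log2 ratio to B6 in Ewsr1 CKO (left) and Prdm9 het (right) for closely spaced (ochre) and other (grey) autosomal intervals, split by gene span and by overlap with a listed H3K4me3 interval. The ochre points are below the grey ones in each stratum except Prdm9 het outside gene spans, where they are 0.12 and 0.08.

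Close neighbours shared little of their strength, except at the shortest gaps. Over the 708 close pairs the 2 intervals lay on the same side of the autosomal B6 median in 381 (53.8%, Wilson interval 50.1 to 57.5%), with both above it in 212, both below in 169 and 1 on each side in 327. Spearman's rho between the lower-coordinate interval and the next was 0.07 across these pairs, some of which share an interval and all of which share the libraries. It was also 0.07 over 1033 pairs 20 to 50 kb apart, over 1306 pairs 50 to 100 kb apart and over 1303 pairs more than 500 kb apart. The stronger interval of a close pair typically had 2.34-fold the B6 value of the weaker (a median log2 difference of 1.23), against 1.27 at 20 to 50 kb and 1.28 beyond 500 kb. Without the intervals below the lower quartile of strength, and with neighbours found again among the rest, 49.3% of 436 pairs were on the same side. By these measures neighbours within 20 kb were about as unlike in strength as neighbours beyond 500 kb.

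Within the close pairs the gap mattered. The 131 pairs up to 5 kb apart had a rho of 0.36 for B6 strength, with 66.4% (87, Wilson interval 58.0 to 73.9%) on the same side of the median. At 5 to 10 kb the values were 0.01 and 52.4% (110 of 210), and at 10 to 20 kb 0.01 and 50.1% (184 of 367). The likeness was highest in the 29 pairs up to 3 kb apart, a limit chosen after the values were seen, where rho was 0.87 and 25 pairs (86.2%) were on the same side. The 102 pairs 3 to 5 kb apart had a rho of 0.21, with 62 (60.8%, Wilson interval 51.1 to 69.7%) on the same side. In Ewsr1 CKO the rho of pairs up to 5 kb apart was 0.38 and in Prdm9 het 0.25, against 0.05 and −0.03 at 10 to 20 kb.

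**Figure D3:**
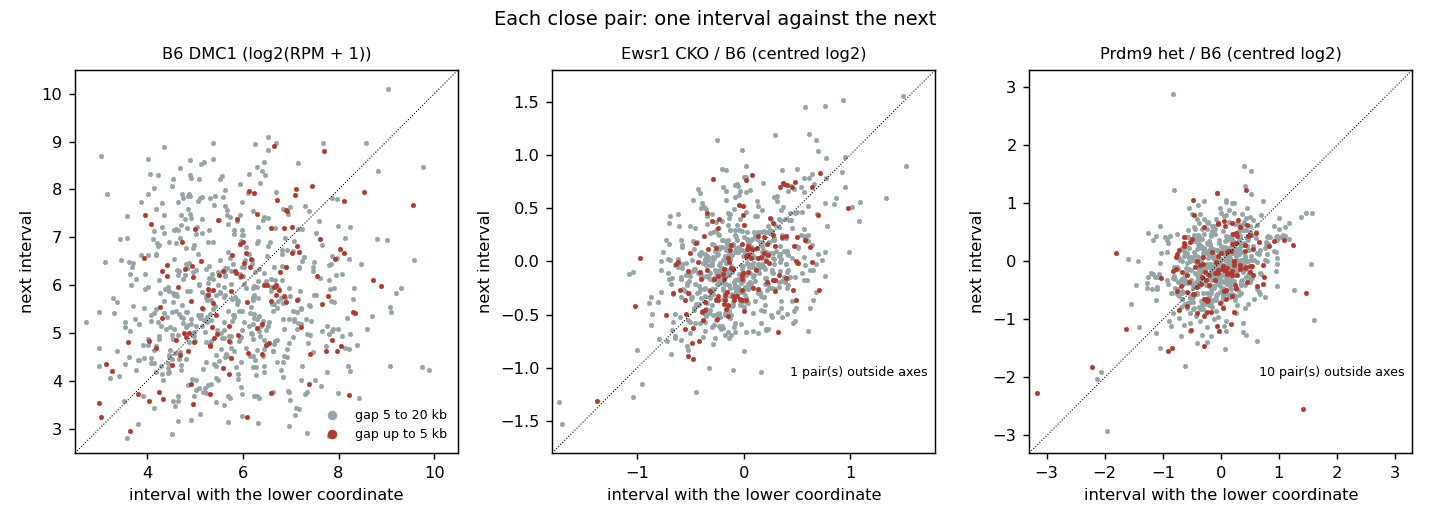
Each of the 708 close pairs as a point, the interval with the lower coordinate on the x axis and the next one on the y axis, for B6 DMC1 (left, log2(RPM + 1)) and the centred log2 ratios of Ewsr1 CKO (middle) and Prdm9 het (right) to B6, with pairs up to 5 kb apart in red and 1 and 10 pairs outside the axes of the middle and right panels. Over all 708 pairs strength shows little trend (rho 0.07) and the ratios follow the diagonal with a wide scatter (rho 0.37 and 0.26), while the red points alone have rho 0.36, 0.48 and 0.26.

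Over all close pairs together, and before any correction for the region, the genotype ratios were more alike in neighbours than strength was. Up to 5 kb this held for Ewsr1 CKO but not for Prdm9 het, and up to 3 kb strength had the highest rho (0.87, against 0.55 and 0.49). For Ewsr1 CKO over B6, rho was 0.37 across the 708 close pairs and 446 pairs (63.0%, Wilson interval 59.4 to 66.5%) lay on the same side of the median, 178 with both above and 268 with both below. The median difference between neighbours was 0.29 on the log2 scale. Counting error alone gives such a difference a median standard error of 0.18 if 1 step is 1 read, and 290 pairs (41.0%) differed by more than 1.96 of their own standard errors. In the 5 classes of wider gaps this share was between 41.0 and 48.5%. Neighbours therefore shared part of their ratio and also differed by more than read sampling in many pairs, as pairs at wider gaps did.

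This likeness was not limited to close neighbours. The rho was 0.28 at 20 to 50 kb, 0.36 at 50 to 100 kb, 0.34 at 100 to 200 kb, 0.38 at 200 to 500 kb and 0.45 beyond 500 kb, where 67.2% of 1303 pairs lay on the same side. Among close pairs it was 0.48 up to 5 kb, 0.39 at 5 to 10 kb and 0.33 at 10 to 20 kb. When the median of the other intervals within 1 Mb was subtracted from both intervals of a pair, rho was 0.47 up to 5 kb and 0.30 at 5 to 10 kb. It was then 0.14 at 10 to 20 kb and between 0.18 and 0.21 in the 5 classes of wider gaps. Since both intervals of a pair lose the same median, values somewhat above 0 arise by construction, and only the order of the gap classes can be read. Pairs up to 10 kb apart had higher values than each of the wider classes. B6 strength treated in the same way had a rho of 0.45 up to 5 kb, 0.18 at 5 to 10 kb, 0.09 at 10 to 20 kb and between 0.18 and 0.22 in the wider classes, so that on this scale strength and the Ewsr1 CKO ratio differed mainly at 5 to 10 kb.

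For Prdm9 het over B6 rho was 0.26 across close pairs, and 415 (58.6%, Wilson interval 55.0 to 62.2%) lay on the same side, 171 with both above and 244 with both below. The median difference between neighbours was 0.43. The rho was 0.26 up to 5 kb, 0.17 at 5 to 10 kb and 0.30 at 10 to 20 kb, and it was 0.20 at 20 to 50 kb, 0.23 at 100 to 200 kb and 0.10 beyond 500 kb. With the level of the region subtracted, the close classes had 0.30, 0.20 and 0.28 and the wider ones between 0.14 and 0.23. In the 29 pairs up to 3 kb apart rho was 0.49, or 0.51 with the region subtracted, against 0.19 and 0.22 at 3 to 5 kb. Above 3 kb the likeness in Prdm9 het thus had no steady order by gap. Where both intervals lay in gene spans 62.8% of 433 pairs were on the same side, against 47.9% of the 190 pairs with both outside.

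**Figure D4:**
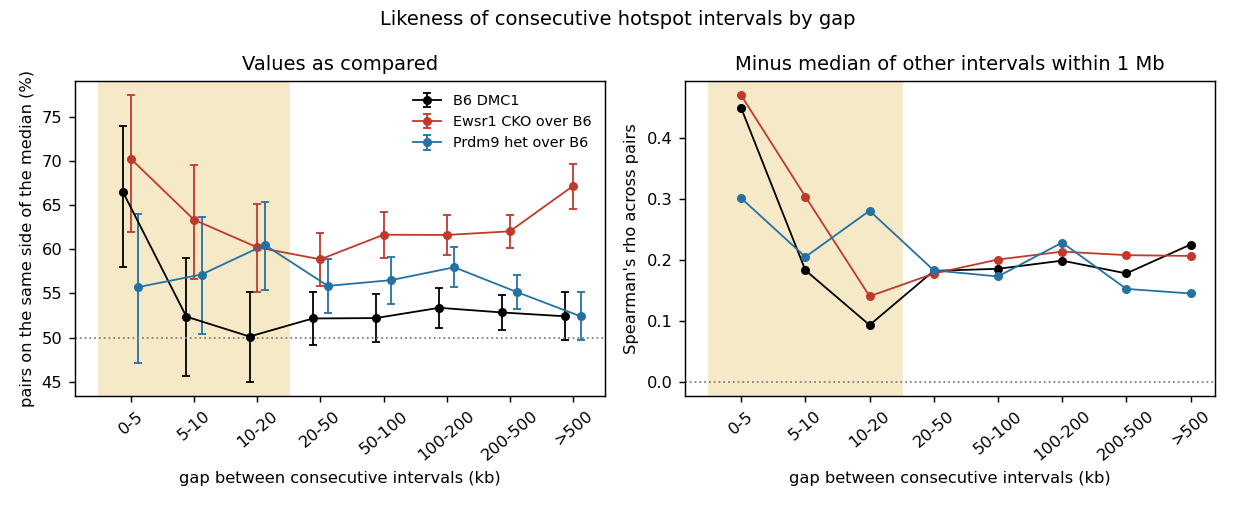
Percent of consecutive autosomal pairs on the same side of the median (left, Wilson 95% intervals) and Spearman's rho after subtracting the median of other intervals within 1 Mb (right), by gap class in kb, for B6 DMC1 (black), Ewsr1 CKO over B6 (red) and Prdm9 het over B6 (blue), with close pairs on the shaded ground. On the left B6 strength stands highest up to 5 kb (66.4%) and lies between 50.1 and 53.4% at wider gaps, while the Ewsr1 CKO ratio lies between 58.9 and 70.2%; on the right the black and red lines lie close together beyond 20 kb.

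Both intervals of a pair could pass 0.5 together. In Ewsr1 CKO over B6, both were at or above 0.5 in 29 close pairs (4.10%) and 1 of them in 87, while both were at or below −0.5 in 24 (3.39%) and 1 in 114. In the 5 classes of wider gaps both were at or above 0.5 in 3.48 to 12.3% of pairs, the latter beyond 500 kb, and both at or below −0.5 in 1.92 to 3.19%. A single close pair (0.141%) had 1 interval at or above 0.5 and the other at or below −0.5, against 0.512 to 1.42% at wider gaps. In Prdm9 het over B6 both were at or below −0.5 in 47 close pairs (6.64%, against 3.53 to 5.61% at wider gaps), both at or above 0.5 in 17 (2.40%, against 3.00 to 4.14%), and the intervals were opposed in another 17 (2.40%, against 3.27 to 4.67%). Joint low values were thus somewhat more frequent, and opposed ones less frequent, among close pairs than in each wider class. The classes differ in how many single intervals pass 0.5, and the difference itself was not tested.

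The stronger interval of a pair mostly stayed the stronger one. It was the same in B6 and Ewsr1 CKO in 649 of 708 pairs (91.7%, Wilson interval 89.4 to 93.5%), in B6 and Prdm9 het in 641 (90.5%), and in all 3 columns in 617 (87.1%). In the 5 classes of wider gaps the first value was between 91.8 and 92.6% and the second between 88.9 and 90.7%. The close pairs lay within 1 percentage point of each wider class for B6 and Ewsr1 CKO, and the difference was not tested. Among the 530 close pairs whose intervals were at least 1.5-fold apart in B6, 525 (99.1%) kept the same stronger interval in Ewsr1 CKO. When the stronger interval was picked from the Prdm9 het column, which neither of the other 2 enters, its median log2 lead was 1.21 in B6 and 1.09 in Ewsr1 CKO. The lead was smaller in Ewsr1 CKO in 456 pairs (64.4%), against 64.7% at 20 to 50 kb and 57.3% beyond 500 kb.

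In the 62 clusters of 3 intervals the middle one had no set rank. It was the strongest in B6 in 22, the weakest in 22 and in between in 18. The strongest interval had a median of 3.73-fold the B6 value of the weakest, with a range from 1.07-fold to 29.8-fold. All 3 intervals lay below the autosomal median of Ewsr1 CKO over B6 in 17 clusters and above it in 8. For Prdm9 het over B6 the counts were 20 and 5.

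Each of the 3 clusters of 4 intervals lay within a single gene. The first spanned 56059 bp of Chd9, a chromatin remodeler of the CHD family, on chromosome 8 between 90942592 and 90998651. Its B6 values were 91.7, 452, 332 and 26.1 RPM from the lowest coordinate on, its Ewsr1 CKO values 92.3, 319, 250 and 24.3 RPM, and its Prdm9 het values 7.81, 53.1, 49.9 and 2.69 RPM. The middle intervals were the strong ones in each genotype. All 4 were below the autosomal median in Ewsr1 CKO over B6 (centred log2 ratios −0.15, −0.66, −0.57 and −0.26) and in Prdm9 het over B6 (−1.11, −0.66, −0.31 and −0.81). The first 3 overlapped a listed H3K4me3 interval and the weakest did not.

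The second spanned 45543 bp of Ankrd17, an ankyrin repeat protein, on chromosome 5 between 90253537 and 90299080. Its B6 values were 131, 29.2, 38.1 and 57.7 RPM and its Ewsr1 CKO values 113, 47.1, 46.9 and 52.5 RPM. Here the neighbours parted: the centred log2 ratios of Ewsr1 CKO over B6 were −0.38, 0.51, 0.13 and −0.29. The first and second intervals, 15198 bp apart, also differed in Prdm9 het over B6 (−0.97 and 0.41). The third cluster spanned 37891 bp of Dab2ip, a GTPase-activating protein for Ras, on chromosome 2 between 35641045 and 35678936. Its B6 values were 21.1, 22.4, 56.1 and 53.0 RPM and its Ewsr1 CKO values 21.9, 18.4, 51.3 and 47.6 RPM. In this cluster all 4 ratios were below 0 in Ewsr1 CKO (−0.11, −0.42, −0.29 and −0.31) and in Prdm9 het (−0.21, −0.61, −0.11 and −0.18), and all 4 intervals overlapped a listed H3K4me3 interval.

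**Figure D5:**
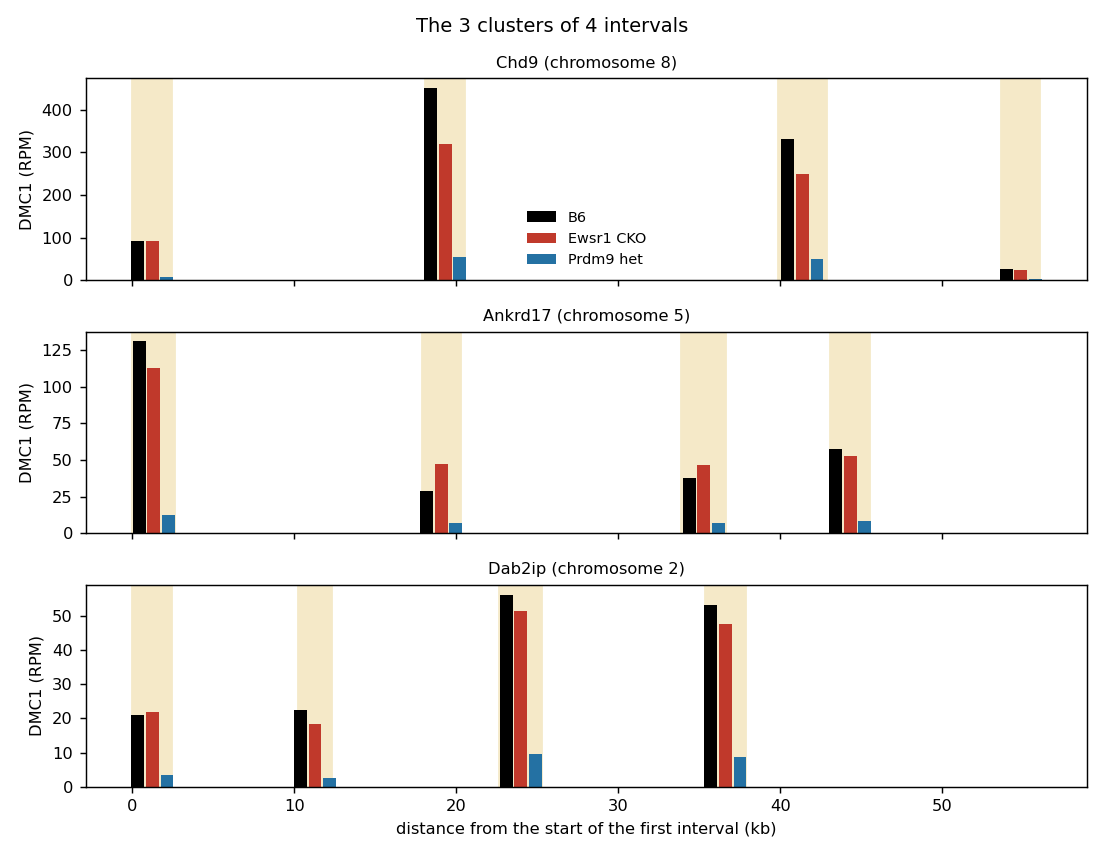
DMC1 in RPM (y axis, from 0) at each interval (shaded) of the clusters in Chd9, Ankrd17 and Dab2ip, against the distance in kb from the start of the first interval, for B6 (black), Ewsr1 CKO (red) and Prdm9 het (blue). In Chd9 the middle intervals (452 and 332 RPM in B6) stand above the outer ones (91.7 and 26.1 RPM) in each genotype.

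The strongest close pairs, by the mean log2 B6 value of their intervals, also lay in gene spans. In Gabrb1, a subunit of the GABA-A receptor, on chromosome 5 at 71852436 to 71854813 and 71870525 to 71873807, the B6 values were 521 and 1095 RPM, the Ewsr1 CKO values 477 and 862 RPM and the Prdm9 het values 74.1 and 166 RPM. The next pair joined Clk1, a kinase of splicing factors, and Ppil3, a cyclophilin-like protein, on chromosome 1 at 58418760 to 58421806 and 58436744 to 58439762, with B6 values of 864 and 352 RPM and Ewsr1 CKO values of 617 and 241 RPM. The third was in Herc2, a large ubiquitin ligase, on chromosome 7 at 56112618 to 56115628 and 56130135 to 56132841, with B6 values of 380 and 497 RPM and Ewsr1 CKO values of 318 and 421 RPM. Since B6 is the denominator of the ratio, choosing pairs by B6 favours low ratios, and nothing is read from their side of the median. The centred log2 ratios of Ewsr1 CKO over B6 were −0.29 and −0.51, −0.65 and −0.70, and −0.42 and −0.40. In the Gabrb1 pair the neighbours differed by 0.22, more than their sampling error of 0.049. In the Clk1 and Herc2 pairs the neighbours differed by 0.06 and 0.02, less than their sampling errors of 0.063 and 0.064.

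Which pairs stood at the ends of the Ewsr1 CKO over B6 ratio depended on how strong pairs were picked. Over all 708 close pairs the highest mean ratio was on chromosome 13, and the same pair led among the 205 pairs whose intervals were both at or above the median of the mean log2 value over B6 and Ewsr1 CKO. That limit weighs B6 and Ewsr1 CKO equally, so a pair can pass it through a high value in either column. At 87406157 to 87408910 and 87421841 to 87424398, B6 had 37.0 and 36.5 RPM, Ewsr1 CKO 119 and 122 RPM and Prdm9 het 9.62 and 8.88 RPM. These neighbours were close to each other in each genotype, and their Ewsr1 CKO ratios were 1.49 and 1.55 with a difference of 0.05 (sampling error 0.15). Within the same limit a pair on chromosome 4 at 68346663 to 68349302 and 68361552 to 68363895 had B6 values of 73.3 and 35.8 RPM and Ewsr1 CKO values of 160 and 80.0 RPM, with ratios of 0.95 and 0.98. In Prdm9 het the same pair was below the median, at −0.53 and −0.71. The third, on chromosome 10 at 35605985 to 35608759 and 35623371 to 35626044, had B6 values of 165 and 46.9 RPM and Ewsr1 CKO values of 297 and 117 RPM, with ratios of 0.68 and 1.14. With strength taken from Prdm9 het, which does not enter the ratio, the chromosome 10 pair was the highest of 178 pairs. With strength taken from B6 alone, which favours low ratios, the highest of 212 was a pair on chromosome 4 at 38191223 to 38194136 and 38199319 to 38201917, with ratios of 0.70 and 1.04. These other limits were chosen after the values were seen.

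The lowest mean ratio of all 708 close pairs was in Cars, a cysteinyl-tRNA synthetase, on chromosome 7 at 143558011 to 143560695 and 143566788 to 143569357. B6 had 66.5 and 60.8 RPM, Ewsr1 CKO 22.1 and 22.8 RPM and Prdm9 het 14.6 and 23.0 RPM. Both neighbours were low in Ewsr1 CKO alone, with ratios of −1.70 and −1.53 and a difference of 0.17 (sampling error 0.23), while the Prdm9 het ratios were 0.23 and 1.01. This pair was also the lowest with strength taken from B6 or from Prdm9 het, and the limit on the mean of B6 and Ewsr1 CKO left it out. In Rtel1, a helicase of telomere maintenance, on chromosome 2 at 181336431 to 181338526 and 181344914 to 181347149, B6 had 47.6 and 28.8 RPM and Ewsr1 CKO 15.2 and 12.3 RPM (−1.74 and −1.32). In Mob2, an activator of NDR kinases, on chromosome 7 at 142023084 to 142025749 and 142032539 to 142034890, B6 had 60.3 and 74.5 RPM and Ewsr1 CKO 32.2 and 33.9 RPM (−1.05 and −1.27). These 6 intervals lay between 0.466 and 3.25 Mb from the last listed interval of their chromosome. Their H3K4me3 in Ewsr1 CKO was 4.51 and 4.19 RPM in Cars, 3.03 and 3.12 RPM in Rtel1 and 2.86 and 3.06 RPM in Mob2, against a median of 0.932 RPM. The part of either in the low ratios was not tested.

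The most unequal of all 708 pairs in Ewsr1 CKO over B6, and the one with the lowest mean next to Cars, was on chromosome 2. At 25629393 to 25632180, in Fcna, a ficolin of innate immunity, the values of B6, Ewsr1 CKO and Prdm9 het were 519, 75.9 and 97.7 RPM, while the neighbour 15604 bp away in Lcn15, a lipocalin, at 25647784 to 25650367 had 123, 112 and 19.4 RPM. The Ewsr1 CKO ratios were −2.92 and −0.29, a difference of 2.63 with a sampling error of 0.12, and the Prdm9 het ratios were 0.01 and −0.24. The low value in Ewsr1 CKO was thus held by the Fcna interval and not by its neighbour. Within the limit that uses both columns, the pair with the next lowest mean lay in Atf2, a bZIP transcription factor, at 73831999 to 73834800 and 73844681 to 73847622 on chromosome 2. Its neighbours were alike, with ratios of −0.72 and −0.75, B6 values of 88.0 and 315 RPM and Ewsr1 CKO values of 59.2 and 210 RPM.

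In the other unequal pairs named within that limit, the interval stronger in B6 had the lower ratio. B6 is the denominator and the pairs were picked for unequal ratios, so the choice favours this order and a smaller lead in Ewsr1 CKO. In Rps6ka5, a kinase that phosphorylates histone H3, on chromosome 12 at 100576524 to 100579724 and 100589724 to 100591973, B6 had 148 and 44.6 RPM and Ewsr1 CKO 102 and 67.3 RPM, so that a 3.32-fold lead in B6 was 1.52-fold in Ewsr1 CKO. The ratios differed by 1.12 (sampling error 0.14). On chromosome 3 at 82345492 to 82348315 and, in Map9, a microtubule-associated protein, at 82362001 to 82365860, B6 had 317 and 51.7 RPM and Ewsr1 CKO 214 and 66.8 RPM, a lead of 6.13-fold and 3.20-fold.

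In Prdm9 het single intervals could stand apart from close neighbours by far more. The widest gap in ratio was on chromosome 9. At 83859376 to 83862215, in Ttk, the spindle checkpoint kinase MPS1, the values of B6, Ewsr1 CKO and Prdm9 het were 766, 674 and 0.454 RPM, while the interval 10256 bp further, at 83872471 to 83875624, had 91.6, 138 and 24.7 RPM. The Prdm9 het ratios were −7.79 and 0.53. In Tm2d1, a membrane protein that binds beta-amyloid, at 98358619 to 98361288 and 98370055 to 98372875 on chromosome 4, B6 had 78.6 and 148 RPM and Ewsr1 CKO 71.4 and 138 RPM, but Prdm9 het had 45.2 and 13.7 RPM. The stronger of these neighbours was thus the other one in Prdm9 het, with ratios to B6 that differed by 2.62, while the Ewsr1 CKO ratios of −0.30 and −0.26 were alike. On chromosome 16 at 54076363 to 54079276 and 54098665 to 54101488, B6 had 50.3 and 176 RPM and Prdm9 het 5.28 and 77.1 RPM.

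Counted at a limit chosen after the values were seen, 17 closely spaced intervals (1.26%) had a centred log2 ratio of −2 or below in Prdm9 het over B6, against 113 of the others (1.53%). They took part in 16 close pairs. In 2 of these both intervals were at or below −2, both on chromosome 14. In the other 14 the second interval had ratios from −1.97 to 1.42 (median −0.13), above 0 in 6. In 4932438A13Rik on chromosome 3, B6 had 539 and 18.8 RPM, Ewsr1 CKO 402 and 20.6 RPM and Prdm9 het 4.28 and 4.58 RPM. In Myom2, a protein of the sarcomere, on chromosome 8, B6 had 293 and 19.0 RPM and Prdm9 het 0.806 and 6.09 RPM. On chromosome 8 between 30225174 and 30241881, the outer intervals of a cluster of 3 had 25.8 and 12.3 RPM in B6 and 0.176 and 0.235 RPM in Prdm9 het, while the one between them had 38.7 and 19.7 RPM, ratios of −3.77, 1.42 and −2.55. So few intervals pass this limit that 1 low interval in a pair would be the usual case whether or not neighbours were alike. Whether neighbours shared low Prdm9 het values was therefore not read from these counts, and wider gaps were not counted at this limit.

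Pairs that were low together in Prdm9 het lay on several chromosomes. In Plekha7, an adaptor of cell junctions, on chromosome 7, the ratios were −2.22 and −1.81, and in Scaf8, a protein that binds RNA polymerase II, on chromosome 17 they were −2.06 and −1.92, at B6 values between 6.94 and 18.9 RPM. Of the 3 lowest pairs of at least median B6 strength, one was the Ttk pair and the others were on chromosome 14. In Slc4a7, a sodium bicarbonate cotransporter, at 14730211 to 14733299 and 14738785 to 14741447, B6 had 102 and 502 RPM, Ewsr1 CKO 127 and 460 RPM and Prdm9 het 4.73 and 12.2 RPM (ratios −1.97 and −2.92). In Abhd6, a monoacylglycerol lipase, at 8025736 to 8027666 and 8029946 to 8032324, B6 had 63.4 and 119 RPM and Prdm9 het 3.70 and 9.75 RPM (−1.63 and −1.17). On chromosome 14 the median ratio was −0.56 for the 52 closely spaced intervals and −0.38 for the others.

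Other pairs were picked for a high mean in Prdm9 het over B6, among 212 pairs with both intervals of at least median B6 strength. Their high ratios restate this choice. On chromosome 12, at 84895636 to 84898128 and, in the ubiquitin ligase gene Arel1, at 84917578 to 84920376, B6 had 94.3 and 119 RPM and Prdm9 het 35.3 and 37.7 RPM (1.00 and 0.75). In Dlgap2, a scaffold protein of synapses, at 14457822 to 14460964 and 14466055 to 14468600 on chromosome 8, where B6 had 355 and 85.7 RPM, the ratios were 0.52 and 1.17. These 4 intervals overlapped a listed H3K4me3 interval, and their H3K4me3 in Ewsr1 CKO ran from 1.24 to 2.60 RPM. The median of 0.932 RPM for closely spaced intervals also covers weak ones, and a median for intervals of this strength was not computed.

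H3K4me3 in Ewsr1 CKO had a median of 0.932 RPM at closely spaced intervals and 0.869 RPM at the others, or 0.385 and 0.357 RPM per kb of interval. A listed H3K4me3 interval was overlapped by at least 1 bp at 807 of 1348 closely spaced intervals (59.9%, Wilson interval 57.2 to 62.5%) and at 4083 of the others (55.2%, 54.1 to 56.3%). Neighbours seldom shared one: in 2 of the 708 pairs a single H3K4me3 interval overlapped both, and both of these pairs were up to 3 kb apart. Both intervals of a pair had a listed site in 270 pairs, 1 of them in 307 and neither in 131. The H3K4me3 values of neighbours had a rho of 0.47 up to 5 kb, 0.22 at 5 to 10 kb and 0.12 at 10 to 20 kb, against 0.18 at 20 to 50 kb, 0.26 at 50 to 100 kb, 0.19 at 100 to 200 kb, 0.22 at 200 to 500 kb and 0.16 beyond 500 kb. The mark, like DMC1 strength, had its highest rho at the shortest gaps, while the classes from 5 to 20 kb lay within or below the range of the wider ones.

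In the 307 pairs with 1 listed interval, the listed one was the stronger DMC1 site in B6 in 243 (79.2%), with medians of 79.6 and 30.5 RPM. Its Ewsr1 CKO over B6 ratio was the lower one in 191 pairs (62.2%, median difference −0.10) and its Prdm9 het over B6 ratio the higher one in 204 (66.4%, median difference 0.24). In 471 such pairs 20 to 50 kb apart the corresponding shares were 79.2%, 61.1% and 68.8%, and in 557 pairs 50 to 100 kb apart 75.6%, 54.8% and 68.2%. The listed interval thus had the lower Ewsr1 CKO ratio less often at 50 to 100 kb (median difference −0.06), a difference between gap classes that was not tested. It was mostly the stronger site in B6, the denominator, so listing and strength cannot be told apart for this ratio. Over all 708 close pairs, the interval stronger in Prdm9 het led by less in Ewsr1 CKO than in B6 in 64.4%. In 85 close pairs with 1 interval in a gene span and 1 outside, the interval in the gene was the lower one in Ewsr1 CKO over B6 in 49 (57.6%) and the higher one in Prdm9 het over B6 in 36 (42.4%). The corresponding shares were 54.8% and 33.7% at 20 to 50 kb, and 57.0% and 41.6% at 50 to 100 kb.

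H3K36me3 was available for the listed H3K4me3 intervals. Where these overlapped a closely spaced DMC1 interval their median in Ewsr1 CKO was 0.918 RPM per kb (807 intervals), against 0.781 RPM per kb at the others (4083). In gene spans the medians were 1.13 and 0.999 RPM per kb, and outside them 0.645 and 0.655 RPM per kb. H3K36me3 is also placed along transcribed genes by SETD2, apart from PRDM9. The higher median at closely spaced hotspots was thus found in gene spans and not outside them.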

How the data were processed

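Values were taken from a pair of tables deposited by the authors in RPM, a DMC1 table and an H3K4me3 table, with 1 column per group; 6 columns were used. Another 4 columns matched no sample of the series and were not used. Mapping tools BWA 0.5.10 and Trimmomatic 0.32 and build mm10 are named in the submitters' processing notes; the peak caller, duplicate handling and merging of replicates are not given in the sources used here. Repeated lines of the H3K4me3 table (220 of 5787) were averaged, leaving 5567 intervals. Set-KO and input samples were not analysed here.

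Gaps, chains and pairs were computed on sorted autosomal intervals, with coordinates as deposited. Ratios used columns scaled to the B6 autosomal sum, a pseudocount of 1 RPM and centring on the autosomal median; H3K4me3 used log2(RPM + 0.1). Calls used a limit of 0.5. Because the group columns hold no replicates, no test, block or count model was fitted. Genes were RefSeq GRCm38.p6 protein-coding spans overlapped by at least 1 bp. Functions were tested on simulated data. The members, lists and rules were chosen with earlier results of these data known. Named regions are the 3 clusters with most intervals, and the 3 pairs with the highest mean log2 B6 value, the smallest gaps, the gaps nearest the limit on each side, and the most unequal, highest and lowest ratios among pairs with both intervals at or above the median strength (the mean of B6 and Ewsr1 CKO for the Ewsr1 CKO ratio, B6 for the Prdm9 het ratio); other regions were chosen after their values were seen, and some regions that these rules name are not reported here. Genes with at least 5 intervals and promoters were likewise chosen afterwards. Python 3.11.15, numpy 2.4.6, pandas 2.3.3, scipy 1.17.1 and matplotlib 3.10.9 were used.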

Additional observations from a re-analysis of the deposited data

How the results depend on the processing

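Of 239 recomputed shares 225 stayed within the Wilson interval of the value first given, among them each one for likeness in Ewsr1 CKO over B6 (33 shares, 59.9 to 66.0%). Most of these shares left out 1 autosome in turn, a setting added after seeing the data. They kept most of the same intervals, so that none of them left the Wilson interval says little. The 10 shares that moved out of it, and the 4 that also crossed 50%, all came from the other settings. The share of closely spaced intervals above the median of the others in B6 DMC1 (53.1%) was 50.2% in the Ewsr1 CKO column and 47.8% outside gene spans. The same share in Ewsr1 CKO over B6 (43.2%) was 46.2% in gene spans. In Prdm9 het over B6 (44.1%) it was 41.1% without intervals below the lower quartile of strength, with neighbours found again among the rest, and 52.9% outside gene spans. Pairs on the same side in B6 strength (53.8%) were 57.8% with a gap limit of 10 kb and 49.3% without the weak intervals. In Prdm9 het over B6 (58.6%) they were 62.4% with the columns as deposited, 63.1% relative to the strength decile, 62.8% in gene spans and 47.9% outside them. The share with the same stronger interval (91.7%) was 99.1% for pairs at least 1.5-fold apart in B6. The share with listed H3K4me3 (59.9%) was 65.4% without the weak intervals and 54.7% outside gene spans. The highest mean ratio of a pair in Ewsr1 CKO over B6 (1.52) was 0.87 with strength taken from B6 and 0.91 with strength taken from Prdm9 het, each in another pair. The lowest (−1.60, the Fcna and Lcn15 pair) was −1.62 with either, also in another pair, that in Cars. These limits and the gene-span splits were added after seeing the data, and the cause of these moves was not tested. No paired analysis was possible because each group has 1 column and no test was made; for the same reason no replicate was left out. The Prdm9 het column has no known depth, which limits its low values.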
